A study of Mus musculus with 14 samples.

Results

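The Cyp4 genes encode cytochrome P450 enzymes that hydroxylate fatty acids at the far, omega end of the chain. The set described here was fixed by name, as Cyp4a10, Cyp4a14, Cyp4a31, Cyp4a32, Cyp4a12a, Cyp4a12b, Cyp4b1, Cyp4f14, Cyp4f15 and Cyp4v3. Of these 10 genes, 8 had a probe set annotated to that gene alone and were measured among 22180 genes in all. Cyp4a10 and Cyp4a32 were covered only by probe sets shared with a neighbouring gene, which are given apart from the 8.

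Livers of 14 male mice of the inbred strain C57BL/6J were each measured on 1 Affymetrix whole-transcript array. By title, mice 1, 2, 3, 5, 6, 10 and 13 (7 mice) were sleep-deprived, and mice 4, 7, 8, 9, 11, 12 and 14 (7 mice) were controls. The study set a single sleep deprivation of 6 h against control mice and asked about glucose tolerance and liver fat. No transgene or deletion is named for either group. The labels give neither the animals' age nor their feeding state or time of collection, and each numbered liver is taken as 1 mouse. Sleep was disturbed in the study by gentle handling, by moving mice to new cages or by a platform in water, and which of these was used for these livers is not stated. Values are log2 levels from RMA, a procedure that corrects background, equalises the arrays' distributions and summarises the probes of a set, with array medians from 3.443 to 3.491.

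The labelled tissue was checked against marker lists. The hepatocyte markers Alb, Ttr and Cyp2e1 were at 13.31, 12.97 and 12.95 in sleep-deprived mice, and the mean over 6 such markers ranged from 11.29 to 11.38 in sleep-deprived and from 11.31 to 11.39 in control mice, although the probe set of Serpina1b was at 5.30. Of these 6, Apoa1 was higher in sleep-deprived mice, by 0.12 (limma, adjusted p = 0.0277). None of 3 neutrophil, 2 adipocyte or 5 Kupffer cell markers passed (limma), the neutrophil list lying between 2.32 and 2.68 in sleep-deprived and between 2.41 and 2.57 in control mice. Single markers of other liver cells passed: Lyve1 (1.13), 1 of 5 sinusoidal endothelial markers, Rgs5 (0.30), 1 of 5 stellate cell markers, Sox9 (0.56), 1 of 4 cholangiocyte markers, and Cd79a (-0.38), 1 of 3 lymphocyte markers. Zonal markers that passed were Lgr5 (-1.05), 1 of 6 pericentral, and Hal (-0.40), 1 of 4 measured periportal hepatocyte markers. Their part in the results was not tested. In whole liver, fewer cells of a type and less RNA per cell cannot be told apart.

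As background, omega-hydroxylation is a side route of fatty acid breakdown in the liver endoplasmic reticulum. The hydroxyl group that a Cyp4 enzyme adds, with electrons passed on by P450 reductase and cytochrome b5, is oxidised further by alcohol and aldehyde dehydrogenases, and the resulting dicarboxylic acid is shortened in peroxisomes. In mouse liver, Cyp4a10 and Cyp4a14 are classical targets of PPARA, the nuclear receptor that senses fatty acids and drives the fasting response, while Cyp4a12a is known for its higher expression in males.

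The Cyp4a genes and Cyp4b1 lie on mouse chromosome 4, Cyp4f14 and Cyp4f15 on chromosome 17 and Cyp4v3 on chromosome 8 (RefSeq, GRCm38.p6). RefSeq's promoter windows, from 250 bases before to 50 after a transcript start, were matched by symbol for 5 of the 10 genes (Cyp4a32, Cyp4b1, Cyp4f14, Cyp4f15 and Cyp4v3). The windows of Cyp4a10, Cyp4a14, Cyp4a31, Cyp4a12a and Cyp4a12b were not used here. The direct repeat bound by PPARA with its partner RXR, 2 copies of AGGTCA with 1 free base between them, was searched on both strands with up to 2 mismatches. It was found in 0 of the 8 windows of these 5 genes, against 3.86% of all 32851 windows. With so few windows, 0 is no departure from that share. Among genes fixed as peroxisomal or PPARA-induced, 5 of the 23 with a window held a match, counted per gene and not per window. The stretches below show the 250 bases before the start of the Cyp4a gene that could be read, in lower case because it holds no match, and 2 of the 5 matches, in genes of fatty acid transport described further on, with the repeat in capitals. Such a match is a likeness of letters and not a measured binding site.
Cyp4a32, chr4:115600688-115600937, plus strand: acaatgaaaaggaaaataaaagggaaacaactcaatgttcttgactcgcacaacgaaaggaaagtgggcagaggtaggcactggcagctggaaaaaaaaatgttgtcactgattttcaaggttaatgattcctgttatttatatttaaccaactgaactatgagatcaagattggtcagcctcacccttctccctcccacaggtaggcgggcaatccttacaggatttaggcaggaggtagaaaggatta
Slc25a20, chr9:108662134-108662163, plus strand: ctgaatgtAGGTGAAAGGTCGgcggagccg
Fabp1, chr6:71199804-71199833, plus strand, with the repeat on the opposite strand: acaatcacTGACCTATGGCCTatatctgag
The match in Slc25a20, the mitochondrial carrier of acylcarnitines, had 2 mismatches, and that in Fabp1, the liver fatty acid-binding protein, had 1 mismatch. The levels of both genes are given with the PPARA-induced genes.

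Sleep deprivation was followed by higher levels of 2 of the 8 measured Cyp4 genes, Cyp4a14 and Cyp4a31, while 0 were lower (limma, Benjamini-Hochberg adjusted p under 0.05 over all genes). The background in this comparison was 8.5% of the 22180 genes called in either direction, 3.88% being higher and 4.62% lower. The median log2 difference was 0.10 over the 8 genes, against -0.0048 over all genes. In none of the 8 did the 2 groups separate fully. The groups did not overlap at 3.13% of all genes, so that 0 of 8 is no departure from the background.

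**Figure D1:**
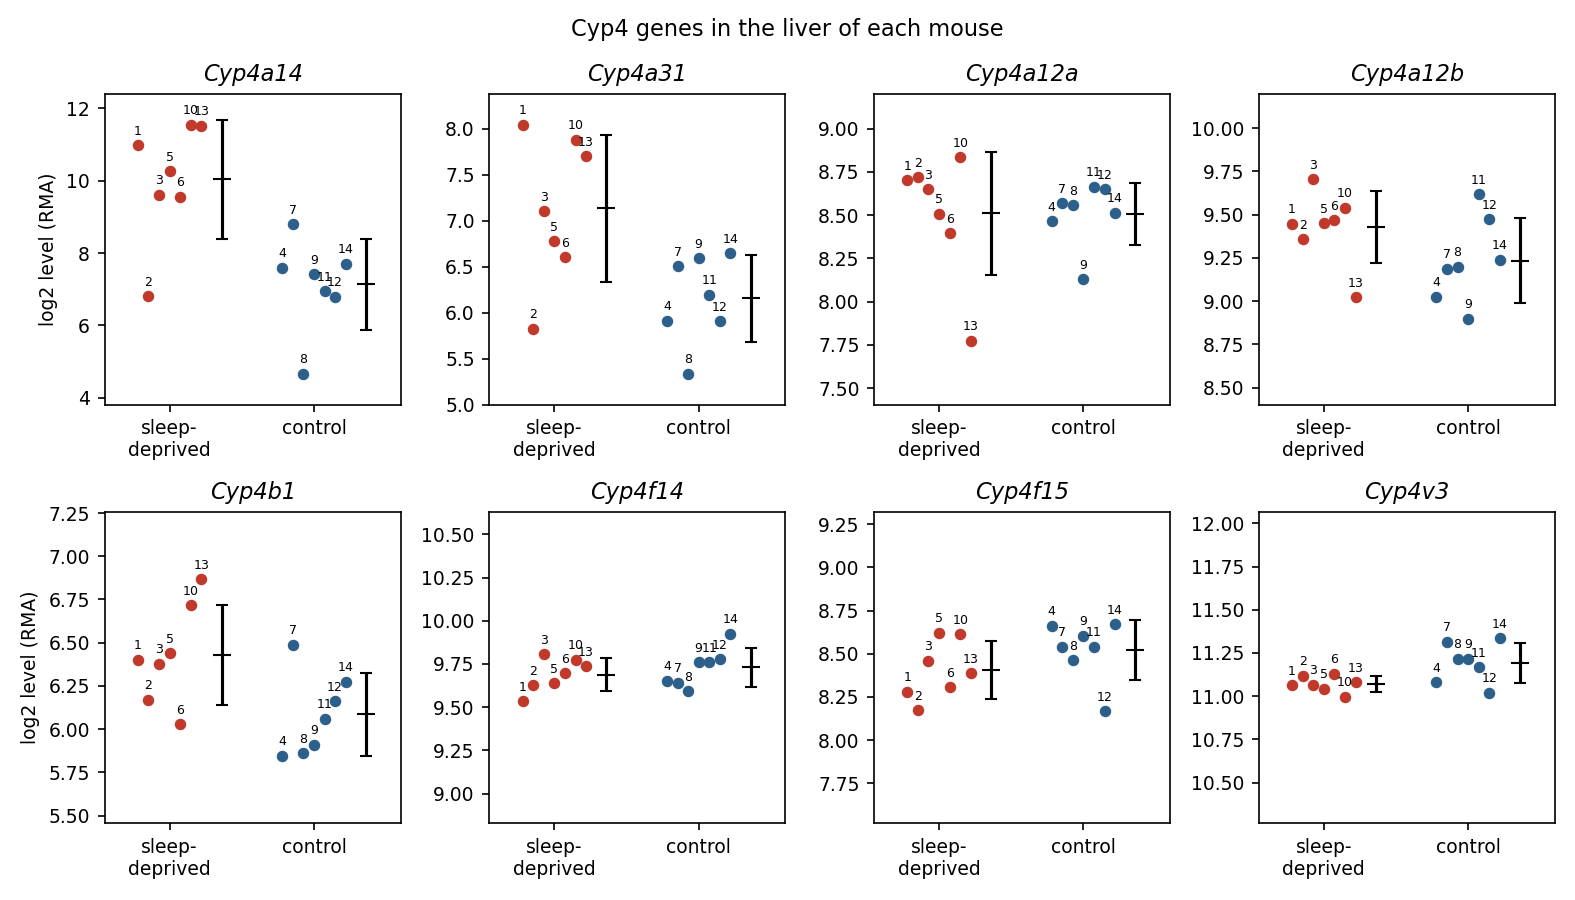
Log2 level (RMA, y axis) of the 8 measured Cyp4 genes in each liver, sleep-deprived mice in red and controls in blue, with the mouse number above each point and the mean ± SD of each group beside it. The y axes do not start at 0 and span different ranges. Above the highest control lay 6 of 7 sleep-deprived mice for Cyp4a14 (all but mouse 2) and 5 of 7 for Cyp4a31 (all but mice 2 and 6), and the sleep-deprived mice lay close together for Cyp4v3.

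Cyp4a14 (probe set 17428457), a fatty acid omega-hydroxylase, stood at a lowest, median and highest log2 level of 6.81, 10.26 and 11.55 in sleep-deprived livers, against 4.67, 7.42 and 8.79 in control livers. Of the sleep-deprived mice, 6 of 7 lay above the highest control, mouse 7, and mouse 2 alone lay within the control range. The mean was 10.04 ± 1.64 in sleep-deprived and 7.13 ± 1.26 in control mice (SD, n = 7 each). The log2 difference was 2.91 ± 0.62 (limma's moderated SE, adjusted p = 0.00439), or 7.51-fold. Without moderation toward other genes the SE was 0.784, and an exact two-sided permutation test of the group labels for this gene alone gave an unadjusted p of 0.00524.

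The gene differed widely between mice of the same group. The control SD of Cyp4a14 ranked 5 among the 22180 genes, and its pooled SD over both groups ranked 2. Control mouse 8 was the lowest of all 14 mice at 4.67, and sleep-deprived mouse 2 the lowest of its group by a gap of 9.56 against 6.81. Without mouse 2 the difference was 3.45 (limma, adjusted p = 9.57e-05), and without mouse 8 it was 2.50 (adjusted p = 0.00878).

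Cyp4a31 (probe set 17417240), a close relative of Cyp4a10 on the same chromosome, ranged from 5.82 over a median of 7.11 to 8.05 in sleep-deprived livers, against 5.34, 6.20 and 6.64 in control livers. Here 5 of 7 sleep-deprived mice were above the highest control, with mouse 2 at the lower end again and mouse 6 within the control range. Its mean was 7.13 ± 0.80 in sleep-deprived and 6.16 ± 0.47 in control mice (SD, n = 7 each), a difference of 0.98 ± 0.28 or 1.97-fold (limma, adjusted p = 0.0333). An exact permutation test for this gene alone gave an unadjusted p of 0.0192. Leaving out single mice ended the call in 8 of 14 cases (sleep-deprived mouse 1, 3, 10 or 13, control mouse 4, 8, 11 or 12), where the adjusted p lay between 0.0525 and 0.0810, and the difference stayed positive, between 0.83 and 1.20, in all 14. With every probe set of the table tested, its adjusted p was 0.109, and with robust estimation 0.118.

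A probe set annotated to both Cyp4a10 and Cyp4a31 read 9.00, 11.06 and 11.72 in sleep-deprived livers, against 8.11, 9.65 and 10.48 in control livers. Again 6 of 7 sleep-deprived mice lay above every control and mouse 2 did not. The log2 difference was 1.30 ± 0.38 and did not pass when every probe set of the table was tested (limma, adjusted p = 0.0768). Without mouse 2 it was 1.61 and passed (adjusted p = 0.00502). A second shared probe set, annotated to Cyp4a32 and Cyp4a10 (17417255), was at 6.61, 7.37 and 7.63 in sleep-deprived livers, against 6.57, 7.26 and 8.04 in control livers, with a difference of -0.096 ± 0.21 (limma, adjusted p = 0.917). Signal of a single gene cannot be told apart in either probe set, and the sequences of the Cyp4a genes are alike enough that single-gene probe sets may also share signal, which was not tested.

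**Figure D2:**
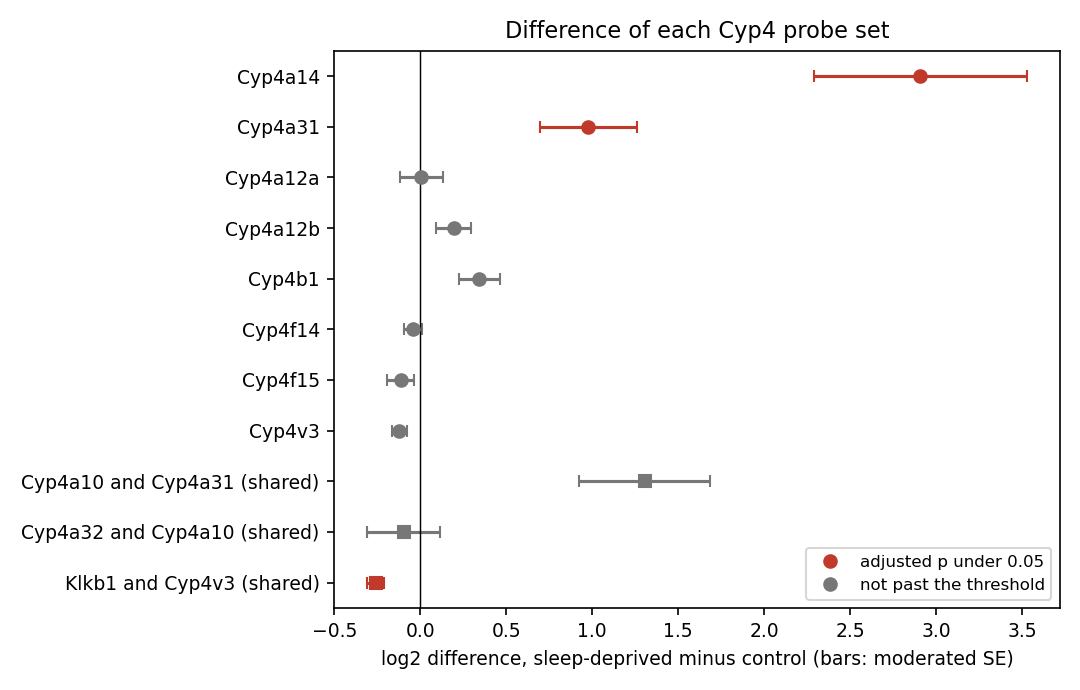
Log2 difference of each Cyp4 probe set, sleep-deprived minus control (x axis), with limma's moderated SE as bars. Circles are the 8 single-gene probe sets and squares the 3 shared ones, red where the adjusted p was under 0.05. The adjustment was over 22180 genes for circles and over every probe set for squares, so their colours are not directly comparable. With every probe set tested, limma's adjusted p was 0.109 for Cyp4a31 and 0.0768 for the probe set of Cyp4a10 and Cyp4a31. Cyp4a14 lies at 2.91, Cyp4a31 at 0.98 and the probe set of Cyp4a10 and Cyp4a31 at 1.30, while Cyp4a12a and Cyp4f14 lie close to 0 and the probe set of Klkb1 and Cyp4v3 lies at -0.26.

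The pair Cyp4a12a and Cyp4a12b, male-biased arachidonate and fatty acid hydroxylases, did not pass. Cyp4a12a (probe set 17417180) had log2 levels of 7.77, 8.65 and 8.83 in sleep-deprived livers (lowest, median, highest), against 8.13, 8.56 and 8.66 in control livers. The groups overlapped, and mouse 13, among the highest for Cyp4a14, was the lowest of all for Cyp4a12a. Its difference of 0.0048 ± 0.12 changed sign with single mice left out (limma, adjusted p = 0.991). Cyp4a12b (probe set 17417195) stood at 9.02, 9.45 and 9.70 in sleep-deprived livers, against 8.90, 9.20 and 9.62 in control livers, a difference of 0.19 ± 0.10 (limma, adjusted p = 0.324).

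Cyp4b1 (probe set 17428477), which hydroxylates medium-chain fatty acids and bioactivates some foreign compounds, was at 6.03, 6.40 and 6.87 in sleep-deprived livers, against 5.85, 6.06 and 6.49 in control livers. Of the sleep-deprived mice 6 of 7 were above the control mean, but only mice 10 and 13 were above the highest control. The difference of 0.34 ± 0.12 did not pass (limma, adjusted p = 0.0925). It passed without sleep-deprived mouse 6 (0.41, adjusted p = 0.0335), without control mouse 7 (0.41, adjusted p = 0.0345) and with the sample number as a covariate (0.48, adjusted p = 0.0117).

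The Cyp4f genes, whose enzymes also hydroxylate leukotrienes, did not pass. Cyp4f14 (probe set 17343488) read 9.53, 9.70 and 9.81 in sleep-deprived livers, against 9.59, 9.76 and 9.92 in control livers, a difference of -0.043 ± 0.054 (limma, adjusted p = 0.762) that turned to 0.022 with the sample number as a covariate. Cyp4f15 (probe set 17336013) read 8.17, 8.39 and 8.62 in sleep-deprived livers, against 8.17, 8.54 and 8.67 in control livers, a difference of -0.12 ± 0.080 (limma, adjusted p = 0.504). Of the 7 sleep-deprived mice, 6 lay within the control range of Cyp4f14 and 7 within that of Cyp4f15.

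Cyp4v3, the mouse counterpart of human CYP4V2, the gene mutated in Bietti crystalline dystrophy of the retina, varied little in sleep-deprived mice. Its single-gene probe set (17509069) was at 11.00, 11.07 and 11.13 in sleep-deprived livers, against 11.02, 11.22 and 11.33 in control livers. All 7 sleep-deprived mice were below the control mean, but 6 of them lay within the control range. The difference of -0.12 ± 0.046 did not pass (limma, adjusted p = 0.120), except without control mouse 12 (-0.15, adjusted p = 0.0346). A probe set annotated to both Cyp4v3 and Klkb1, the gene of plasma prekallikrein, was lower in sleep-deprived livers, at 10.14, 10.24 and 10.41, against 10.46, 10.48 and 10.64 in control livers. Its groups did not overlap and its difference was -0.26 ± 0.048 (limma over every probe set, adjusted p = 0.00453). The part of each gene in that signal cannot be told apart.

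Whether the response differed between related genes was tested on the difference in log2 level between both genes in each mouse, with exact two-sided permutation tests over the group labels and adjustment over 5 pairs. Cyp4a14 minus Cyp4a12a averaged 1.53 ± 1.79 in sleep-deprived mice and -1.37 ± 1.30 in control mice (SD, n = 7 each), so that Cyp4a14 responded more by 2.90 ± 0.84 (SE, exact p = 0.00758, adjusted p = 0.0189). Cyp4a14 also exceeded Cyp4a31, by 1.93 ± 0.50 (SE, exact p = 0.00408, adjusted p = 0.0189), with the difference at 2.91 ± 0.96 in sleep-deprived and 0.98 ± 0.91 in control mice. Both calls held whichever of the 14 mice was left out. Cyp4a31 minus Cyp4a12a, at 0.97 ± 0.41 (SE, exact p = 0.039, adjusted p = 0.0651), did not pass, and passed without mouse 2 (1.23, exact adjusted p = 0.00777) or control mouse 9 (1.11, exact adjusted p = 0.0418). Cyp4a12a minus Cyp4a12b (-0.19 ± 0.10, exact adjusted p = 0.109) and Cyp4f14 minus Cyp4f15 (0.073 ± 0.093, exact adjusted p = 0.451) did not pass. Without mouse 2, Cyp4a12a minus Cyp4a12b was -0.23 and passed (exact adjusted p = 0.0444). Planned pairs with Cyp4a10 or Cyp4a32 could not be formed, and both pairs with Cyp4a31 were added after the data were seen.

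Covariation of the members with Cyp4a14 was examined between mice of the same group. Over the 7 sleep-deprived mice Cyp4a14 correlated with Cyp4a31 at Pearson's r = 0.918 (exact permutation p = 0.00496, adjusted over 18 relations p = 0.031) and Spearman's rho = 0.857 (exact permutation p = 0.0238, adjusted p = 0.143). With the probe set of Cyp4a10 and Cyp4a31 it correlated at r = 0.967 (exact permutation p = 0.000595, adjusted p = 0.0107) and rho = 0.964 (exact permutation p = 0.00278, adjusted p = 0.05). In the 7 control mice these values were r = 0.825 (exact permutation p = 0.0208, adjusted p = 0.0749) and rho = 0.75 (exact permutation p = 0.0663, adjusted p = 0.227) with Cyp4a31, and r = 0.964 (exact permutation p = 0.00516, adjusted p = 0.031) and rho = 0.714 (exact permutation p = 0.0881, adjusted p = 0.227) with the shared probe set. Without the 2 mice farthest from the median level of Cyp4a14 (mice 2 and 10 of the sleep-deprived, mice 7 and 8 of the controls) r was 0.809 and 0.841 in sleep-deprived mice and 0.512 and 0.551 in control mice. With 5 mice these had exact permutation p of 0.125 and 0.05 in sleep-deprived mice and 0.325 and 0.358 in control mice, none under 0.05. Probe sets of related genes can share signal, and its part in these correlations was not tested.

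The other members and the probe set of Cyp4a32 and Cyp4a10 did not pass in this family of 18 relations. That probe set was at r = 0.756 in sleep-deprived mice (exact permutation p = 0.0575, adjusted p = 0.15) and 0.812 in control mice (exact permutation p = 0.0204, adjusted p = 0.0749). Without the 2 farthest mice of each group these were 0.052 and 0.647. Cyp4b1 was at r = 0.735 in sleep-deprived mice (exact permutation p = 0.0585, adjusted p = 0.15) and 0.631 in control mice (exact permutation p = 0.129, adjusted p = 0.258). Its rho was 0.893 in sleep-deprived mice (exact permutation p = 0.0123, adjusted p = 0.111) and 0.5 in control mice (exact permutation p = 0.267, adjusted p = 0.437). Without the 2 farthest mice, its r was 0.829 in sleep-deprived mice (exact permutation p = 0.0417, adjusted p = 0.225) and -0.164 in control mice (exact permutation p = 0.758, adjusted p = 0.863). Over all 7 mice of a group, Cyp4a12a was at r = -0.314 in sleep-deprived mice (exact permutation p = 0.441, adjusted p = 0.661) and -0.161 in control mice (exact permutation p = 0.64, adjusted p = 0.722). Cyp4v3 was at -0.664 in sleep-deprived mice (exact permutation p = 0.107, adjusted p = 0.241) and 0.28 in control mice (exact permutation p = 0.572, adjusted p = 0.722).

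**Figure D3:**
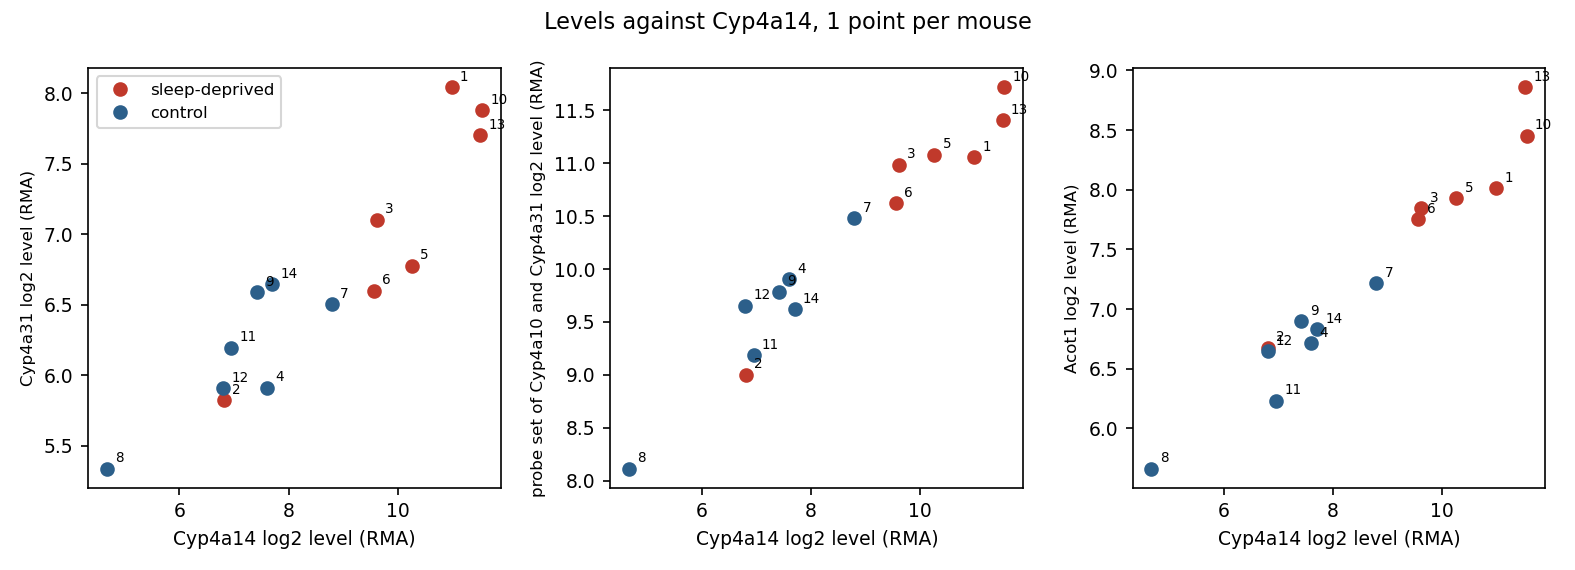
Log2 level (RMA) of Cyp4a31, of the probe set shared by Cyp4a10 and Cyp4a31, and of Acot1 (y axes) against that of Cyp4a14 (x axes), with 1 numbered point per mouse, sleep-deprived in red and control in blue. Sleep-deprived mouse 2 lies among the controls in all 3 panels, and control mouse 8 is the lowest of all.

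Among 10371 other named genes with a mean at or above that of the median gene, those whose deviations from the group means were most like those of Cyp4a14 over the 14 arrays were Acot1 (r = 0.954), Fpgs (0.94), Cpt2 (0.936), Slc25a20 (0.901) and Nedd4l (0.899). These values describe the arrays and carry no test, since the genes were picked for them. Acot1 encodes a cytosolic acyl-CoA thioesterase, Cpt2 the inner-membrane carnitine palmitoyltransferase, Fpgs a folate-conjugating synthetase and Nedd4l a ubiquitin ligase. Acot1 was at 6.68 in mouse 2 and 5.66 in mouse 8, the lowest of their groups, as in Cyp4a14. Between the groups Acot1 rose by 1.33 ± 0.26 (limma, adjusted p = 0.00185) and Nedd4l by 0.59 ± 0.13 (adjusted p = 0.00715). Cpt2 (0.16 ± 0.056, adjusted p = 0.0972), Slc25a20 (0.19 ± 0.079, adjusted p = 0.169) and Fpgs (0.064 ± 0.076, adjusted p = 0.741) did not pass.

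Other genes of the Cyp4 family did not pass in either direction, with 0 of 10 higher and 0 lower and a median difference of 0.020 (limma; 2 had an unadjusted p under 0.05). Of these, Cyp4f17, at a level of 6.48 ± 0.13 in sleep-deprived and 6.32 ± 0.12 in control mice (SD, n = 7 each), had a difference of 0.16 ± 0.069 (limma, adjusted p = 0.183). Cyp4x1 was at 0.11 ± 0.11 (adjusted p = 0.657) and Cyp4f37 at -0.044 ± 0.15 (adjusted p = 0.924). Cyp4f13, at 8.60 ± 0.15 in sleep-deprived and 8.59 ± 0.13 in control mice (SD, n = 7 each), differed by 0.011 ± 0.068 (adjusted p = 0.963). Cyp4f16, Cyp4f18, Cyp4f37, Cyp4f39, Cyp4f40, Cyp4a29 and Cyp4a30b were dim, with both group means under the lowest array median of 3.443. The dimmest was Cyp4f40, at a mean of 2.29. A change in such dim genes could be missed.

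The steps around the hydroxylation were read from electron donors and dehydrogenases. Of 8 measured genes, 6 were lower and 0 higher after sleep deprivation (limma, against 4.62% of all genes lower), with a median log2 difference of -0.24. The count was 6 whichever of the 14 mice was left out, and 5 when the probe sets of a gene were averaged or every probe set was tested. Por, the P450 reductase, was not measured by a single-gene probe set and is not analysed here.

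Adh4, an alcohol dehydrogenase whose human counterpart acts on omega-hydroxy fatty acids, ranged from 8.92 to 9.30 in sleep-deprived livers, against 9.70 to 9.97 in control livers. The groups did not overlap, and the difference was -0.69 ± 0.064 (limma, adjusted p = 1.15e-06). Adh1, the main hepatic ethanol-oxidising enzyme, lay between 11.96 and 12.15 in sleep-deprived and between 12.21 and 12.38 in control livers (-0.24 ± 0.036, limma adjusted p = 0.000185). Adh5, the glutathione-dependent formaldehyde dehydrogenase, differed by -0.23 ± 0.040 (limma, adjusted p = 0.000696), also without overlap. Aldh3a2, the fatty aldehyde dehydrogenase that completes the conversion to a dicarboxylic acid, was at 9.29 ± 0.23 in sleep-deprived and 9.62 ± 0.15 in control mice (SD, n = 7 each), with a difference of -0.33 ± 0.087 (limma, adjusted p = 0.0196) and overlapping groups.

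Cytochrome b5 of the endoplasmic reticulum, Cyb5a, which passes electrons to P450 enzymes, lay between 9.40 and 9.53 in sleep-deprived livers, against 9.55 and 9.81 in control livers (-0.23 ± 0.043, limma adjusted p = 0.00154). The mitochondrial form Cyb5b fell by 0.41 (SE 0.079, limma, adjusted p = 0.00165), again without overlap of the groups. The reductase Cyb5r3 (-0.084 ± 0.059, adjusted p = 0.507) and Adh7 (-0.20 ± 0.12, adjusted p = 0.403) did not pass. The low mouse of the Cyp4a14 values, mouse 2, was at 9.30 for Adh4 and 9.52 for Cyb5a, below every control. Within its group it was the highest for Adh4 and close to the highest, 9.53, for Cyb5a. It was also the highest of its group for Adh5 (9.64) and the lowest for Adh1 (11.96).

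**Figure D4:**
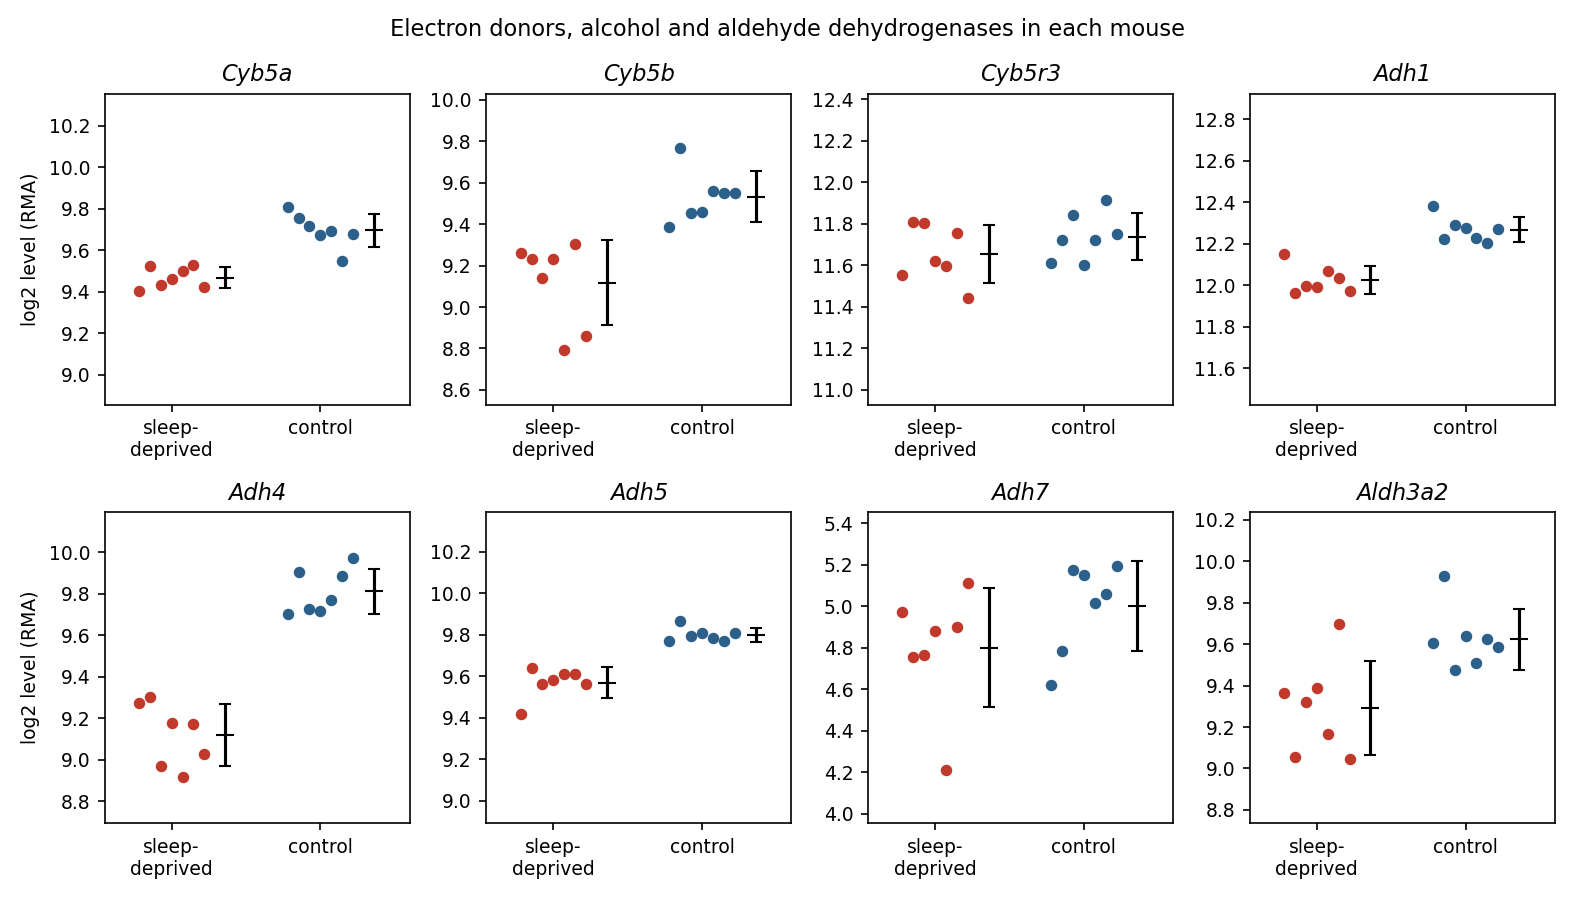
Log2 level (RMA, y axis) of the 8 measured electron donors and dehydrogenases in each liver, sleep-deprived in red and control in blue, with the mean ± SD of each group. All y axes span the same range of log2 units and do not start at 0. The groups do not overlap for Cyb5a, Cyb5b, Adh1, Adh4 and Adh5.

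Genes of peroxisomes, where the dicarboxylic acids made by this route are shortened, changed in both directions. Of 13 measured, 2 were higher and 4 lower, with a median difference of -0.18 (limma). Crat, the carnitine acetyltransferase, rose by 0.66 ± 0.16 (limma, adjusted p = 0.0115), and Pex11a, a peroxisome proliferation factor, by 0.62 ± 0.092 (adjusted p = 0.000152). The peroxisomal transporters Abcd2 and Abcd3 were at -1.38 ± 0.24 (adjusted p = 0.000866) and -0.31 ± 0.043 (adjusted p = 7.97e-05), the carnitine octanoyltransferase Crot at -0.30 ± 0.068 (adjusted p = 0.00736) and the coenzyme A hydrolase Nudt7 at -0.40 ± 0.088 (adjusted p = 0.00545). Ehhadh, the bifunctional enzyme needed for dicarboxylic acid oxidation, did not pass at 0.36 ± 0.12 (limma, adjusted p = 0.0826).

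Of 12 other PPARA-induced genes 4 were higher and 0 lower, with a median of 0.18. Beside Acot1 these were the lipid droplet gene Cidec (1.33 ± 0.17, limma adjusted p = 2.92e-05), the hormone gene Fgf21 (1.37 ± 0.22, adjusted p = 0.000402) and the lipase inhibitor Angptl4 (0.67 ± 0.095, adjusted p = 0.000105). For Fgf21, sleep-deprived mice lay between 4.90 and 6.66 and control mice between 4.27 and 4.98. Mouse 2, low in Cyp4a14, Cyp4a31 and Acot1, was at 6.26 for Fgf21, above every control. Among the other peroxisomal and PPARA-induced genes called higher, it was the lowest sleep-deprived mouse for Cidec (5.33), Crat (7.62) and Pex11a (8.50). It still lay above the highest control for Cidec (4.86) and, narrowly, for Pex11a (8.501 against 8.497). For Crat it lay within the control range of 7.09 to 7.81. For Angptl4 (9.78) it was not the lowest, and it lay above the highest control (9.49). Slc25a20 and Fabp1, the genes with a repeat in the windows shown, did not pass (Fabp1 at -0.14 ± 0.049, limma adjusted p = 0.0918).

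Ppara itself was at 9.39 ± 0.17 in sleep-deprived and 9.41 ± 0.17 in control mice (SD, n = 7 each), a difference of -0.019 ± 0.079 (limma, adjusted p = 0.941), and its partner Rxra at -0.088 ± 0.047 (adjusted p = 0.330). Of the 15 receptors and regulators measured, 6 were lower and 0 higher. These were Pparg (-1.02 ± 0.17), the transcriptional repressor Bcl6 (-1.24 ± 0.24), the growth hormone receptor Ghr (-0.43 ± 0.052), its effector Stat5b (-0.21 ± 0.055), the xenobiotic receptor Nr1i3 (-0.39 ± 0.11) and the glucocorticoid receptor Nr3c1 (-0.22 ± 0.055), with limma adjusted p between 2.27e-05 for Ghr and 0.0304 for Nr1i3.

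Among 9 other male-biased liver genes, read beside Cyp4a12a and Cyp4a12b, 1 was higher and 1 lower, with a median of 0.034. The elongase Elovl3 rose by 1.42 ± 0.16 (limma, adjusted p = 8.01e-06). The steroid dehydrogenase Hsd3b5 was at -0.42 ± 0.12 (adjusted p = 0.0372), a call that other settings lost. Selenbp2 (0.38 ± 0.12, adjusted p = 0.0639) and Mup20 (-0.035 ± 0.041, adjusted p = 0.739) did not pass.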

How the data were processed

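The deposited table holds log2 expression per probe set. Per the submitters' processing notes it was made with RMA, with no version, software or annotation stated. Per the labels' protocols 100 ng of total RNA was labelled with the WT PLUS kit. The table holds 41345 probe sets and no detection calls, and RMA compresses differences of dim genes. Probe sets were named by the platform annotation, symbols being checked through RefSeq gene IDs (0 changed): 23521 had 1 symbol, 1814 several and 16010 were not listed. The brightest single-symbol probe set stood for a gene.

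Differences, taken as sleep-deprived minus control, came from limma 3.58.1 under R 4.3.3 (eBayes with an intensity trend, two-sided), with p adjusted by Benjamini-Hochberg over 22180 genes with a threshold of 0.05. Shared probe sets were read from a fit over every probe set. Exact permutation tests over the 3432 regroupings used Python 3.11.15. The p-values of group differences weigh each difference against the variation between these mice only. The number of arrays, 7 per group, limits the precision. The members, the 6 gene lists and the tests were chosen with earlier results of these data known. The pairs with Cyp4a10 or Cyp4a32 could not be formed, and 2 other pairs took their place after the data were seen. Named genes were all members, each list gene past the threshold, in lists with under 4 of these the brightest others up to 4, and the 5 genes most like the called member with the largest rise. Others (Cyb5r3, Adh7, Ehhadh, Ppara, Rxra, Slc25a20 and Fabp1) were named after their values were seen. The fit was tested on simulated data. Alternatives were other moderation, array weights, filters, probe set rules, centring, quantile normalization, the sample number as a covariate and each mouse left out.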

Additional observations from a re-analysis of the deposited data

Results flagged for a closer look

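In 16 groups of 7 mice (8 genes, both groups), 4 held a mouse whose gap to the nearest other exceeded Dixon's 95% critical value, which chance exceeds in about 1 in 20 groups. For Cyp4a14, sleep-deprived mouse 2 was at 6.81, with the next mouse at 9.56. For Cyp4a12a, sleep-deprived mouse 13 was at 7.77, with the next at 8.39, and control mouse 9 at 8.13, with the next at 8.46. For Cyp4f15, control mouse 12 was at 8.17, with the next at 8.46. The mice differed from gene to gene.

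The probe set annotated to both Klkb1 and Cyp4v3, which lies outside the single-gene measurements, differed by -0.26, past the threshold, while the single-gene probe set of Cyp4v3 did not pass.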

How the results depend on the processing

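No paired analysis was possible because the groups share no sample number. Cyp4a14 stayed called under each alternative run, at 2.50 to 3.45. Calls of members numbered 1 higher with robust estimation or with every probe set tested, and 1 to 3 higher and 0 to 1 lower without single mice, against 2 and 0. Cyp4a31 stayed at 0.98 but lost its call with robust estimation (adjusted p = 0.118) and with every probe set (0.109), and ranged from 0.83 to 1.20 without single mice. With the sample number as a covariate Cyp4a12a turned to -0.098, Cyp4f14 to 0.022 and the probe set of Cyp4a32 and Cyp4a10 to 0.021, and Cyp4b1 reached 0.48 and passed. Without single mice Cyp4a12a ranged from -0.058 to 0.13, Cyp4b1 from 0.27 to 0.41, Cyp4v3 from -0.15 to -0.099 and the probe set of Cyp4a32 and Cyp4a10 from -0.23 to 0.019 (0.012 without control mouse 14). The pairs Cyp4a12a minus Cyp4a12b and Cyp4a31 minus Cyp4a12a ranged from -0.23 to -0.13 and from 0.75 to 1.23. The causes were not tested.

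Among list counts, PPARA-induced genes had 1 lower with quantile normalization repeated or the covariate (0 to 1 without single mice), regulators 1 higher with brighter genes or the covariate (0 to 2 without single mice), and other Cyp4 genes 0 to 1 higher without single mice. Male-biased genes had 2 higher with brighter genes (1 to 2 without single mice) and 0 lower without the trend, with robust estimation, with every probe set and with the covariate (0 to 2 without single mice). All genes called ranged from 679 to 868 higher and from 862 to 1054 lower without single mice.

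Without the 2 farthest mice the correlation of Cyp4a14 turned to -0.358 with Cyp4f14 and -0.18 with Cyp4f15 in sleep-deprived mice and to -0.164 with Cyp4b1 in controls. The 3 called correlations were then 0.809, 0.841 and 0.551 and did not pass. Too few mice were left to decide this. The lowest exact permutation p of the 18 relations, 0.00833 for Cyp4f15 in controls (r = 0.848), still adjusted to 0.15 with 5 mice. Without detection calls, signal over background could not be read for dim genes.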
